A study of Homo sapiens with 15 samples.

Results

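The S100 genes encode small calcium binding proteins, each built around a pair of EF hands, the helix-loop-helix fold that holds a calcium ion. The 10 genes described here, S100A2, S100A4, S100A6, S100A7, S100A8, S100A9, S100A11, S100A14, S100A16 and S100P, were chosen by name from 33158 gene symbols in an RNA sequencing table of triple negative breast cancer cell lines. The table lists 11 other S100 symbols, which are given for comparison. As background, most S100 proteins work as dimers that change shape when calcium binds and then dock onto target proteins such as annexins, myosin and p53. Some are also secreted, and outside the cell they act on receptors such as RAGE (encoded by AGER) and TLR4. In epithelia, several members mark keratinocyte differentiation and inflammation, and S100A8 and S100A9 are best known from neutrophils and monocytes.

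The study sorted cells by a pair of surface proteins to ask which genes set breast cancer stem cells (CSCs) apart from the other cells of the same line. Cells positive for CD44 with little or no CD24 were collected as CSCs, and the remaining cells were the non-CSCs. SUM149PT and HCC1937 each gave CSC and non-CSC libraries, and SUM159PT was sequenced unsorted and treated by the study as CSCs. Each of the 5 groups holds 3 libraries, 15 in all, made from polyadenylated RNA of established triple negative cell lines with no drug or genetic change in the labels. The values are FPKM (fragment counts scaled to transcript length and to the mapped total of the library), so read depth is unknown and no counting error can be given. The labels do not say that replicates came from separate cultures, so each p-value measures only the spread between these libraries. SUM159PT was not sorted, so line and sort cannot be told apart in any comparison with it. Whether its libraries were prepared or quantified in the same way as the sorted ones is not known here.

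The SUM159PT libraries stood apart from the other 12. Their FPKM values summed to 634746 to 652082, against 291276 to 366532 in the sorted libraries. Genes above 1 FPKM numbered 8534 to 8670 in SUM159PT and 11249 to 11997 in the sorted libraries. Symbols of ribosomal protein genes, 1057 with pseudogenes included, held 45.9% to 47.4% of the SUM159PT sum and 10.9% to 19.9% of the sorted sums. Within the sorted libraries that share was 17.8% to 19.9% in SUM149PT CSCs and 10.9% to 12.4% in SUM149PT non-CSCs, and its part in the results was not tested. The comparisons of CSCs with non-CSCs within a line use no SUM159PT library, apart from the orders of the 5 groups and 1 alternative, which come from the fit of 15. In bulk RNA, fewer cells that express a gene and less of its RNA per cell cannot be told apart.

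The labels were checked against marker genes. CD24 averaged 7.74 ± 0.198 FPKM (SD, n = 3) in SUM149PT CSCs and 139.5 ± 6.53 in the non-CSCs, a log2 difference of -4.15. In HCC1937 it averaged 23.4 ± 0.747 and 150.0 ± 14.3 FPKM, a log2 difference of -2.68. CD24 thus followed the sort in both lines, and in unsorted SUM159PT its mean was 0.729 FPKM. CD44 differed less, with means of 84.4 and 64.5 FPKM in SUM149PT CSCs and non-CSCs, 106.3 and 97.8 in HCC1937, and 28.8 in SUM159PT. Of the receptors that define triple negative disease, PGR had means of at most 0.00101 FPKM, ESR1 of at most 1.67 FPKM and ERBB2 of 3.55 to 19.1 FPKM across the 5 groups.

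In SUM149PT, S100A7, S100A8, S100A9, S100A14 and S100P were lower in CSCs than in non-CSCs by 22 to 32.5 times as ratios of mean FPKM. In HCC1937 the same 5 genes were lower in CSCs by 4.17 to 20.9 times, and S100A2 was lower by 2.37 times. S100A4, S100A6, S100A11 and S100A16, along with S100A2 in SUM149PT, differed between the fractions by at most 1.74 times in either line. A call needed a limma p, adjusted over the whole table, no higher than 0.05, together with a log2 difference of 1 or more. All 10 members passed the filter, a mean not under 0.1 FPKM, in the 7 comparisons.

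In SUM149PT, 5 of 10 members were called lower in CSCs and 0 higher, against 22.1% and 12.8% of the 16037 genes tested. limma gave 9 members an unadjusted p below 0.05 there, and without the fold limit 6 were lower and 3 higher, beside 41.5% and 33.3% of all genes. At the study's stricter adjusted p of 0.0001 with the same fold limit, 5 members were lower, as were 12.8% of all genes. The members' median log2 difference was -2.63, and the median of all genes was -0.11. In HCC1937, 6 of 10 members were called lower and 0 higher, against 6% and 2.71% of the 15582 genes tested. Without the fold limit 7 were lower and 0 higher, beside 15.3% and 10.3% of all genes. At the study's limit limma called 0 members and 0% of all genes, with 8 members at an unadjusted p below 0.05 and a smallest adjusted p of 0.000128 over the table. The members' median was -1.65, and that of all genes -0.03.

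These counts carry 3 limits. The study itself picked S100A7 and S100A14 from these libraries for its list shared by both lines, and S100A2, S100A8, S100A9 and S100P for its HCC1937 list, so their direction is not independent evidence. An exact two-sided permutation test of 3 libraries against 3 cannot give a p below 0.10, and that was its value for each of the called members in these 2 comparisons. Adding 0.1 FPKM before the log2 step understates the change of genes with low values.

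**Figure D1:**
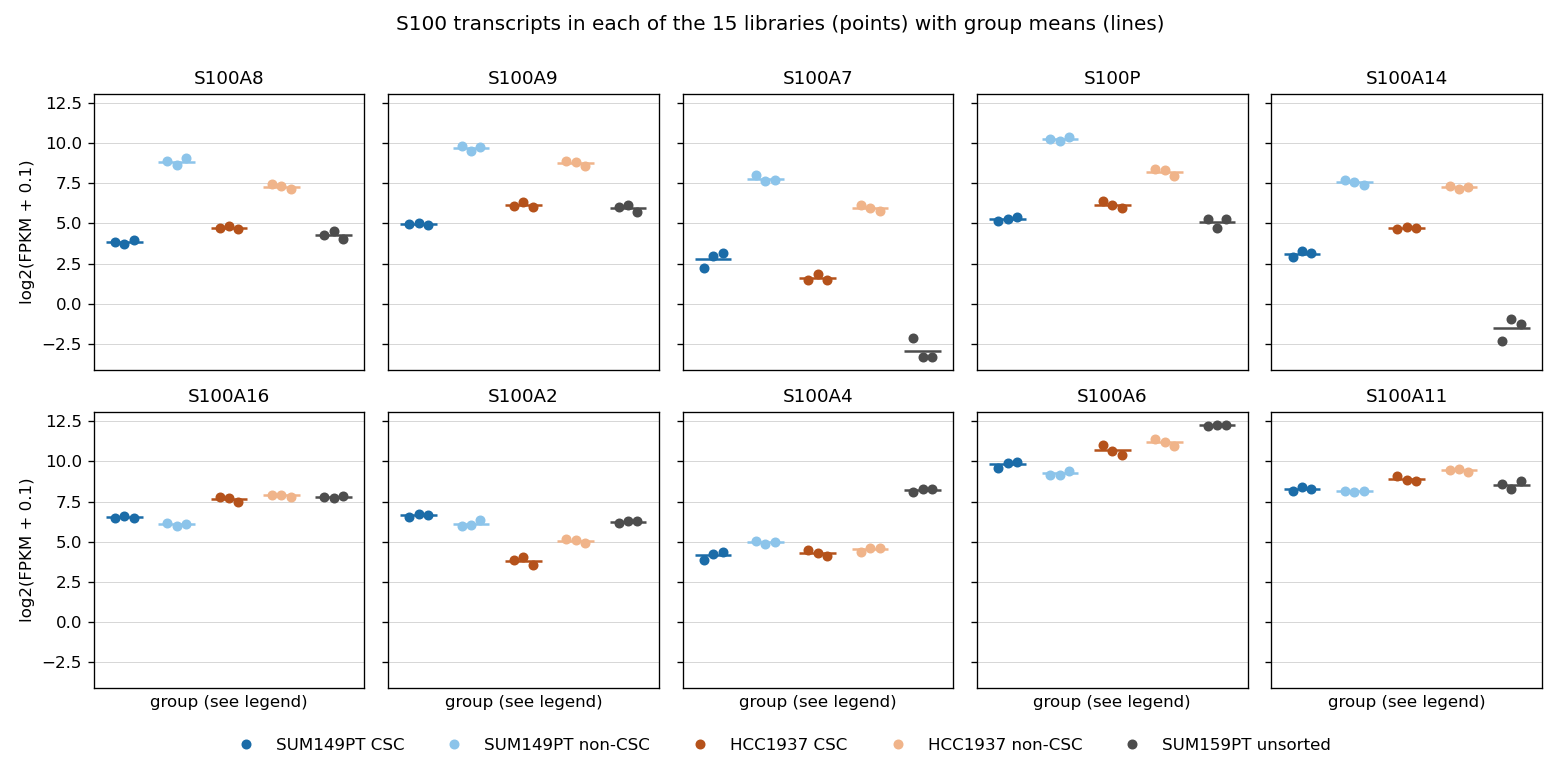
Level of each of the 10 S100 genes as log2(FPKM + 0.1), with a point per library, the 5 groups side by side and a line at each group's mean on that scale. S100A8 lies between 12.9 and 28.7 FPKM in the sorted CSC libraries and between 138.4 and 529.4 FPKM in the non-CSC libraries, while S100A11 stays between 267.7 and 724.4 FPKM in these 12 libraries.

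**Figure D2:**
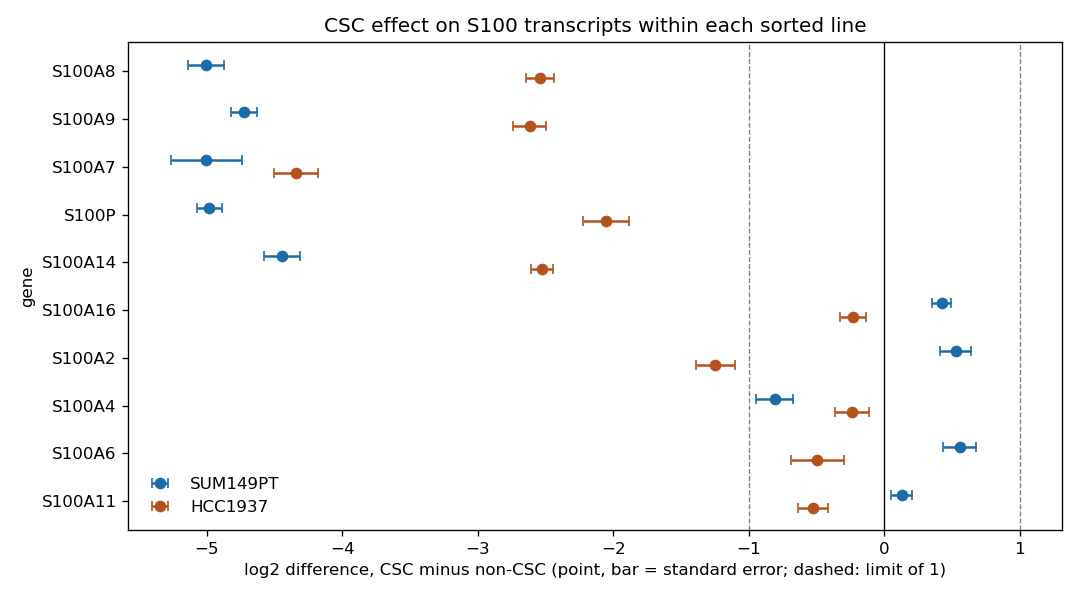
log2 difference of CSCs from non-CSCs for each S100 gene in SUM149PT and in HCC1937, with bars of 1 standard error from limma (n = 3 libraries per fraction) and dashed lines at the fold limit of 1. The points of S100A7, S100A8, S100A9, S100A14 and S100P lie between -5.00 and -2.06, and S100A2 lies at 0.53 in SUM149PT and at -1.24 in HCC1937.

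S100A8 and S100A9 encode the subunits of calprotectin, a heterodimer that binds calcium, zinc and manganese and is abundant in neutrophils and monocytes. S100A8 stood at 14.4, 12.9 and 15.2 FPKM in SUM149PT CSCs and at 464.5, 387.6 and 529.4 FPKM in the non-CSCs. In HCC1937 it stood at 25.9, 28.7 and 25.3 FPKM in CSCs and at 170.6, 158.6 and 138.4 FPKM in non-CSCs. SUM159PT gave 19.4, 22.8 and 16.3 FPKM, near the CSC levels of the sorted lines. All CSC libraries were below all non-CSC libraries of their line, with log2 differences of -5.00 (SE 0.133, adjusted p = 2.95e-06) in SUM149PT and -2.54 (SE 0.105, adjusted p = 0.000146) in HCC1937. From high to low, mean S100A8 was 460.5 FPKM in SUM149PT non-CSCs, 155.9 in HCC1937 non-CSCs, 26.7 in HCC1937 CSCs, 19.5 in SUM159PT and 14.2 in SUM149PT CSCs, and each neighbouring pair differed in the fit of 15 libraries, although SUM159PT came above HCC1937 CSCs with upper quartile scaling (0.17) and below SUM149PT CSCs with TPM rescaling (-0.64) and when scaled without ribosomal protein genes (-0.04). Leaving out SUM159PT replicate 2 took the adjusted p against SUM149PT CSCs to 0.0515.

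S100A9 ran above its partner in each library. It stood at 30.8, 32.6 and 30.03 FPKM in SUM149PT CSCs and at 897.5, 725.5 and 865.6 FPKM in the non-CSCs. In HCC1937 the values were 66.2, 79.9 and 65.3 FPKM in CSCs and 465.8, 451.9 and 379.7 FPKM in non-CSCs. SUM159PT gave 64.8, 71.2 and 51.6 FPKM, overlapping the HCC1937 CSCs. The log2 difference of CSCs from non-CSCs was -4.73 (SE 0.097, adjusted p = 1.82e-06) in SUM149PT and -2.62 (SE 0.124, adjusted p = 0.000187) in HCC1937, with no overlap between fractions. The group means fell from 829.5 FPKM in SUM149PT non-CSCs through 432.5 in HCC1937 non-CSCs, 70.5 in HCC1937 CSCs and 62.6 in SUM159PT to 31.1 in SUM149PT CSCs, with SUM159PT above HCC1937 CSCs under upper quartile scaling (0.46) and below SUM149PT CSCs under TPM rescaling (-0.09). HCC1937 CSCs and SUM159PT, neighbours in that order, did not differ past the limit (adjusted p = 0.226). They did with upper quartile scaling (adjusted p = 0.00623), and with TPM rescaling SUM159PT was lower by -1.18 (adjusted p = 1.39e-06).

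The ratio of S100A9 to S100A8 within a library moved far less than either gene. It averaged 2.21 ± 0.277 (SD, n = 3) in SUM149PT CSCs and 1.81 ± 0.157 in the non-CSCs, 2.64 ± 0.126 and 2.77 ± 0.0656 in the HCC1937 fractions, and 3.21 ± 0.118 in SUM159PT. Over the 15 libraries the log2 levels of the pair had a Pearson r of 0.9898, a description over 5 groups of 3 libraries.

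**Figure D3:**
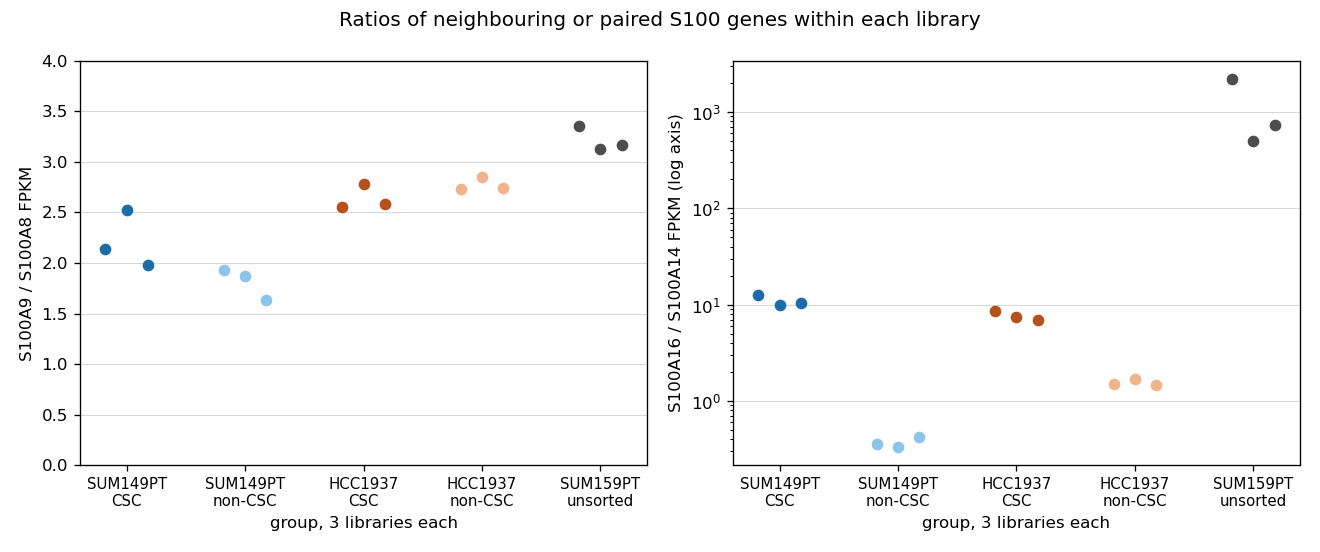
Ratio of FPKM within each library for S100A9 over S100A8 (linear axis) and S100A16 over S100A14 (log axis), with a point per library in each of the 5 groups. S100A9 over S100A8 stays between 1.63 and 3.35, whereas S100A16 over S100A14 runs from 0.334 in SUM149PT non-CSCs to 2205.6 in SUM159PT.

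The study measured S100A8 by qRT-PCR, and its primers were placed on the annotation to see which part of the transcript they read. Both are shown because they define what that assay read, the primer listed as forward lying in exon 2 on the antisense strand and the one listed as reverse in exon 1 on the sense strand. They matched no other gene of GENCODE 29 exactly. Their product is 127 bases on transcript S100A8-202 and 610 bases on S100A8-203. The positions are chr1:153390453-153390473 and chr1:153391041-153391062 (GRCh38), and no letters are in capitals because no part is marked.
S100A8 listed forward: gcatggaaattcccctttatc
S100A8 listed reverse: cagctgtctttcagaagacctg

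S100A7, psoriasin, is an antimicrobial protein of keratinocytes that was first found in psoriatic skin. It stood at 4.51, 7.65 and 8.65 FPKM in SUM149PT CSCs and at 253.6, 195.5 and 207.4 FPKM in the non-CSCs. The HCC1937 values were 2.67, 3.58 and 2.63 FPKM in CSCs and 70.4, 61.2 and 53.8 FPKM in non-CSCs. SUM159PT gave 0.126, 0 and 0 FPKM, the lowest level of any member. Fractions did not overlap in either sorted line, with log2 differences of -5.00 (SE 0.262, adjusted p = 2.08e-05) in SUM149PT and -4.34 (SE 0.161, adjusted p = 0.000128) in HCC1937. The order ran from SUM149PT non-CSCs (218.9 FPKM) through HCC1937 non-CSCs (61.8), SUM149PT CSCs (6.94) and HCC1937 CSCs (2.96) to SUM159PT (0.0418), and each neighbouring pair differed. With a pseudocount of 0.01, however, the CSCs of the sorted lines (adjusted p = 0.186) and their non-CSCs (adjusted p = 0.0516) missed the limit.

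Of the 50-base windows in S100A7 transcripts, 69 of 487 (14.2%) also occur in S100A7A, its paralogue, so part of the signal of this gene pair may not be assigned to a single gene. S100A7A averaged 0.0375 FPKM in SUM149PT CSCs and 1.57 FPKM in the non-CSCs, far under S100A7 itself. S100A11 shared 12 of 630 windows (1.90%) with AC006483.1, and the other 8 members shared 0 with any gene.

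S100P, first isolated from placenta, binds ezrin and signals through RAGE when secreted. It was the most abundant member of the SUM149PT non-CSCs, at 1238, 1122 and 1311 FPKM, beside 35.8, 38.7 and 41.5 FPKM in the CSCs. In HCC1937 it stood at 83.6, 70.4 and 62.6 FPKM in CSCs and at 339.8, 320.4 and 243.7 FPKM in non-CSCs. SUM159PT gave 38.6, 26.4 and 37.8 FPKM, overlapping the SUM149PT CSCs. The log2 difference of CSCs was -4.98 (SE 0.090, adjusted p = 1.51e-06) in SUM149PT and -2.06 (SE 0.17, adjusted p = 0.000857) in HCC1937, each without overlap. Levels descended from SUM149PT non-CSCs (mean 1224 FPKM) through HCC1937 non-CSCs (301.3), HCC1937 CSCs (72.2) and SUM149PT CSCs (38.7) to SUM159PT (34.3), and the last pair did not differ past the limit (adjusted p = 0.3) and changed places with upper quartile scaling (0.25). With TPM rescaling SUM159PT was called lower than SUM149PT CSCs (-1.28, adjusted p = 3.07e-06).

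S100A14 is an epithelial member whose second EF hand has lost the residues that bind calcium, and S100A16 is its neighbour on the chromosome. S100A14 stood at 7.25, 9.62 and 8.67 FPKM in SUM149PT CSCs and at 203.7, 192.4 and 165.4 FPKM in the non-CSCs. In HCC1937 it stood at 25.3, 27.7 and 26.2 FPKM in CSCs and at 162.1, 143 and 151.8 FPKM in non-CSCs. SUM159PT gave 0.0989, 0.427 and 0.310 FPKM, below all sorted libraries. The log2 differences of CSCs were -4.45 (SE 0.133, adjusted p = 3.8e-06) and -2.52 (SE 0.079, adjusted p = 0.000128), with no overlap in either line. The order was SUM149PT non-CSCs (187.1 FPKM), HCC1937 non-CSCs (152.3), HCC1937 CSCs (26.4), SUM149PT CSCs (8.51) and SUM159PT (0.278), in which the leading pair did not differ past the limit (adjusted p = 0.328). The libraries of that pair did not overlap, and its adjusted p from limma ran down to 0.026 over the alternatives.

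S100A16, widely expressed across tissues, took another course although its gene lies 1109 bases from S100A14. It stood at 90.5, 96.0 and 90.6 FPKM in SUM149PT CSCs and at 72.3, 64.2 and 69.96 FPKM in the non-CSCs. The HCC1937 values were 218.9, 206.3 and 180.5 FPKM in CSCs and 243.5, 241.97 and 223.9 FPKM in non-CSCs, and SUM159PT gave 218.2, 214.9 and 229.2 FPKM. Fractions did not overlap in either line, but CSCs were the higher fraction in SUM149PT (log2 0.43, SE 0.069, adjusted p = 0.00204) and the lower one in HCC1937 (log2 -0.23, SE 0.095), where the test was not passed (adjusted p = 0.14). Levels ran from HCC1937 non-CSCs (236.5 FPKM) through SUM159PT (220.8), HCC1937 CSCs (201.9) and SUM149PT CSCs (92.4) to SUM149PT non-CSCs (68.8). SUM159PT did not differ past the limit from either neighbour (adjusted p of 0.254 and 0.131), the HCC1937 fractions around it differed in the fit of 15 libraries (adjusted p = 0.0417), and SUM159PT came below HCC1937 CSCs with quantile normalization (-0.67), TPM rescaling (-0.87) and scaling without ribosomal protein genes (-0.17). Over all alternatives that difference, 0.13 as given, ran up to 0.77.

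Within a library, S100A16 over S100A14 was 12.5, 9.98 and 10.4 in SUM149PT CSCs and 0.355, 0.334 and 0.423 in the non-CSCs. It was 8.65, 7.45 and 6.9 in HCC1937 CSCs and 1.5, 1.69 and 1.48 in HCC1937 non-CSCs. SUM159PT reached 2205.6, 504 and 740, with S100A14 below 1 FPKM in its 3 libraries. The ratio separated the fractions of both lines with no overlap. Multiplying a library by a single factor cannot change it, but quantile normalization can.

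S100A2, a mostly nuclear protein of basal epithelial cells that binds p53, moved in opposite directions in the 2 sorted lines. It stood at 92.1, 107.7 and 101.5 FPKM in SUM149PT CSCs and at 64.0, 65.2 and 80.1 FPKM in the non-CSCs. In HCC1937 it stood at 14.3, 16.3 and 11.8 FPKM in CSCs and at 36.1, 34.9 and 29.8 FPKM in non-CSCs. SUM159PT gave 70.6, 78.7 and 77.9 FPKM, within the span of the SUM149PT non-CSCs. CSCs were higher in SUM149PT by log2 0.53 (SE 0.114, adjusted p = 0.00673), under the fold limit, and lower in HCC1937 by log2 -1.24 (SE 0.145, adjusted p = 0.00252). The order was SUM149PT CSCs (100.4 FPKM), SUM159PT (75.7), SUM149PT non-CSCs (69.7), HCC1937 non-CSCs (33.6) and HCC1937 CSCs (14.2), and SUM159PT did not differ from SUM149PT non-CSCs past the limit (adjusted p = 0.374) and came level with SUM149PT CSCs (0.04) under upper quartile scaling.

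S100A4, also called metastasin or fibroblast-specific protein, binds non-muscle myosin heavy chain and is used as a marker of fibroblasts. It stood at 14.7, 18.9 and 20.5 FPKM in SUM149PT CSCs and at 33.0, 29.6 and 31.6 FPKM in the non-CSCs. In HCC1937 the fractions overlapped, at 21.99, 19.97 and 17.0 FPKM in CSCs and 20.6, 24.7 and 24.1 FPKM in non-CSCs. SUM159PT stood far above both lines, at 277.5, 312.8 and 308.3 FPKM. CSCs were lower in SUM149PT by log2 -0.81 (SE 0.135, adjusted p = 0.00236), and the HCC1937 difference of -0.24 did not pass the test (adjusted p = 0.233). Behind SUM159PT (299.5 FPKM) came SUM149PT non-CSCs (31.4), HCC1937 non-CSCs (23.2), HCC1937 CSCs (19.7) and SUM149PT CSCs (18.1). HCC1937 CSCs did not differ past the limit from either neighbour (adjusted p of 0.198 and 0.377), HCC1937 non-CSCs and SUM149PT CSCs did not overlap and were not tested against each other, and the CSCs of the lines changed places with upper quartile scaling (-0.06), quantile normalization (-0.07) and scaling without ribosomal protein genes (-0.06).

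S100A6, calcyclin, binds annexins and the ubiquitin ligase adaptor CACYBP, and it was the most abundant member in 4 of the 5 groups. It stood at 769, 953 and 978 FPKM in SUM149PT CSCs and at 579, 573 and 676 FPKM in the non-CSCs. In HCC1937 the fractions overlapped, at 2074, 1606 and 1348 FPKM in CSCs and 2696, 2347 and 1973 FPKM in non-CSCs. SUM159PT reached 4757, 4945 and 4963 FPKM, the highest values of any member. CSCs were higher in SUM149PT by log2 0.56 (SE 0.123, adjusted p = 0.00738), and the HCC1937 value of -0.49 did not pass the test within that line (adjusted p = 0.128, and 0.0312 with a replicate block). All 4 neighbouring pairs in the order SUM159PT (4888 FPKM), HCC1937 non-CSCs (2339), HCC1937 CSCs (1676), SUM149PT CSCs (900.1) and SUM149PT non-CSCs (609.3) differed in the fit of 15 libraries, the HCC1937 fractions by adjusted p = 0.0325 there, but quantile normalization put SUM159PT below HCC1937 CSCs (-0.52).

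S100A11, a partner of annexin A1 in membrane and growth control, differed little between the SUM149PT fractions. It stood at 286.7, 332.8 and 305.4 FPKM in CSCs and at 287.4, 267.7 and 288.8 FPKM in non-CSCs, which overlapped (log2 0.13, SE 0.077, adjusted p = 0.174, and 0.0405 with TPM rescaling). In HCC1937 it stood at 543, 466.3 and 437.4 FPKM in CSCs and at 715.8, 724.4 and 637.1 FPKM in non-CSCs. CSCs were lower there by log2 -0.53 (SE 0.108, adjusted p = 0.0186) without overlap, but leaving out HCC1937 CSC replicate 2 or 3 or non-CSC replicate 1 or 2 took the adjusted p past the limit, up to 0.0703, and SUM159PT gave 385.7, 312.7 and 430.4 FPKM. The order of means was HCC1937 non-CSCs (692.4 FPKM), HCC1937 CSCs (482.3), SUM159PT (376.3), SUM149PT CSCs (308.3) and SUM149PT non-CSCs (281.3), and the last pair did not differ past the limit (adjusted p = 0.34). The place of SUM159PT was not firm, since its difference from SUM149PT CSCs (adjusted p = 0.0447) went to 0.0617 with a replicate block and up to 0.193 without 1 replicate, and that from HCC1937 CSCs up to 0.0577. SUM159PT came above HCC1937 CSCs with upper quartile scaling (0.27) and below SUM149PT CSCs with quantile normalization (-0.58), TPM rescaling (-0.81) and scaling without ribosomal protein genes (-0.21).

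The CSC effect itself was compared between the lines by an interaction test over the 12 sorted libraries, taking the SUM149PT effect minus the HCC1937 effect. There 4 members were called lower and 2 higher, against 18.2% and 12.2% of 16451 genes, with a median of -0.61 for the members and -0.08 for all genes. S100P (-2.92, adjusted p = 1.16e-06), S100A8 (-2.46, adjusted p = 1.41e-06), S100A9 (-2.11, adjusted p = 2.48e-06) and S100A14 (-1.92, adjusted p = 3.97e-06) fell further in SUM149PT CSCs. S100A2 (1.77, adjusted p = 2.56e-05) and S100A6 (1.05, adjusted p = 0.00386) were the 2 called higher. S100A6 lay under the fold limit with quantile normalization (0.75), with TPM rescaling (0.97), and without HCC1937 CSC replicate 3 (0.90), HCC1937 non-CSC replicate 1 (0.94) or SUM149PT CSC replicate 3 (0.99). For S100A7 the difference was -0.66 and did not pass the test (adjusted p = 0.107), although adjusted p was 0.0193 with a pseudocount of 1 and 0.0463 without SUM149PT CSC replicate 3.

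HCC1937 was then set against SUM149PT within each fraction, in a single fit of all 15 libraries. Among CSCs, 2 members were called lower in HCC1937 and 3 higher, against 17.3% and 25.6% of 16373 genes, with medians of 0.89 for members and 0.22 for all genes. S100A2 (-2.83, adjusted p = 5.82e-10) and S100A7 (-1.16, adjusted p = 0.00421) were the lower genes. S100A14 (1.63, adjusted p = 0.000103), S100A9 (1.17, adjusted p = 3.86e-06) and S100A16 (1.12, adjusted p = 3.67e-08) were the higher ones. S100A9 and S100A16 lost the call at 0.98 and 0.93 with upper quartile scaling and at 0.98 and 0.94 when scaled without ribosomal protein genes, and S100A7 lost it with a pseudocount of 0.01 (adjusted p = 0.186), with a pseudocount of 1 (-0.97) and without SUM149PT CSC replicate 3 (-0.98). S100A6 (0.88 as given) passed the fold limit without HCC1937 CSC replicate 3 (1.03).

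Among non-CSCs, 4 members were called lower in HCC1937 and 3 higher, against 20.3% and 21.8% of all genes, with medians of -0.69 and 0.09. S100P (-2.03), S100A7 (-1.82), S100A8 (-1.56) and S100A2 (-1.05) were lower, with adjusted p from 1.8e-07 to 0.000149. S100A6 (1.93), S100A16 (1.78) and S100A11 (1.30) were higher, with adjusted p from 5.54e-10 to 4.89e-07. S100A2 lay under the fold limit without HCC1937 non-CSC replicate 3 (-0.97) and without SUM149PT non-CSC replicate 3 (-0.95), and S100A7 missed the p limit with a pseudocount of 0.01 (adjusted p = 0.0516). S100A9 (-0.94 as given) was called lower under each of the 4 other scalings, at -1.12 to -1.09, and without SUM149PT non-CSC replicate 2 (-1.03), which made 5 lower. S100A8 and S100P were thus lower in HCC1937 than in SUM149PT among non-CSCs, and their values among CSCs were 0.91 (adjusted p = 6.16e-05) and 0.89 (adjusted p = 0.000319), higher in HCC1937 but under the fold limit.

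SUM159PT against SUM149PT CSCs gave 2 members lower and 3 higher, against 42.3% and 19.1% of all genes, with medians of 0.36 for the members and -0.60 for all genes. S100A7 (-5.69, adjusted p = 1.36e-09) and S100A14 (-4.61, adjusted p = 2.46e-09) were lower in SUM159PT, where they averaged 0.0418 and 0.278 FPKM, and over the alternatives the values ran from -8.13 to -2.89 and from -5.86 to -2.90. S100A4 (4.06, adjusted p = 6.65e-12), S100A6 (2.45, adjusted p = 7.85e-09) and S100A16 (1.26, adjusted p = 5.76e-09) were higher, although with quantile normalization S100A6 and S100A16 gave 0.47 and 0.45, and S100A16 gave 0.17 with TPM rescaling and 0.77 when scaled without ribosomal protein genes. TPM rescaling gave 4 lower and 2 higher, adding S100A2 (-1.5) and S100P (-1.28), and upper quartile scaling gave 2 lower and 4 higher, adding S100A9 (1.44). S100A9 (0.99 as given) also passed the limit without SUM149PT CSC replicate 2 (1.03) or SUM159PT replicate 3 (1.12).

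SUM159PT against HCC1937 CSCs gave 3 members lower and 3 higher, against 46.5% and 17.6% of all genes, with medians of -0.27 and -0.85. TPM rescaling gave 6 lower and 2 higher, adding S100A8 (-1.47), S100A9 (-1.18) and S100A11 (-1.37), and quantile normalization gave 4 lower and 2 higher, adding S100A11 (-1.43). S100A14 (-6.24, adjusted p = 1e-10), S100A7 (-4.53, adjusted p = 1.39e-08) and S100P (-1.08, adjusted p = 4.59e-05) were lower, and S100P lay under the fold limit with upper quartile scaling (-0.45) and without HCC1937 CSC replicate 1 (-0.97) or SUM159PT replicate 2 (-0.91). Over the alternatives S100A14 ran from -7.41 to -4.43 and S100A7 from -6.95 to -1.92. S100A4 (3.93, adjusted p = 7.61e-12), S100A2 (2.42, adjusted p = 9.42e-10) and S100A6 (1.57, adjusted p = 7.62e-07) were higher, with S100A2 between 1.42 and 3.06 over the alternatives, but S100A6 turned to -0.52 with quantile normalization and fell to 0.56 with TPM rescaling.

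Scaling moved the level of the whole table in these comparisons. The median of all genes for SUM159PT against SUM149PT CSCs was -0.60 as given, -0.31 with upper quartile scaling, 0.06 with quantile normalization, -1.63 with TPM rescaling and -0.96 when scaled to the sum without ribosomal protein genes. Against HCC1937 CSCs the same 5 medians were -0.85, -0.36, 0.02, -1.83 and -1.08. Of the calls against SUM149PT CSCs 31.1% were higher in SUM159PT as given, 50.2% with quantile normalization and 11.2% with TPM rescaling. Of those against HCC1937 CSCs 27.5% were higher as given, 40.2% with upper quartile scaling, 49.0% with quantile normalization and 12.9% with TPM rescaling. S100A4, S100A7 and S100A14 kept their direction and call in both SUM159PT comparisons under these scalings. Within the lines the median of all genes moved less, with quantile normalization from -0.11 to 0.10 for SUM149PT and from -0.08 to 0.06 for the interaction, and with TPM rescaling from -0.03 to 0.09 for HCC1937. For HCC1937 against SUM149PT it moved with upper quartile scaling from 0.22 to 0.04 among CSCs and from 0.09 to -0.06 among non-CSCs. Quantile normalization raised the higher share of calls from 36.5% to 51.2% for SUM149PT and from 40.2% to 50.7% for the interaction, and TPM rescaling raised it from 31.1% to 42.2% for HCC1937. Each member kept its direction within both lines under upper quartile scaling, quantile normalization and TPM rescaling.

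**Figure D4:**
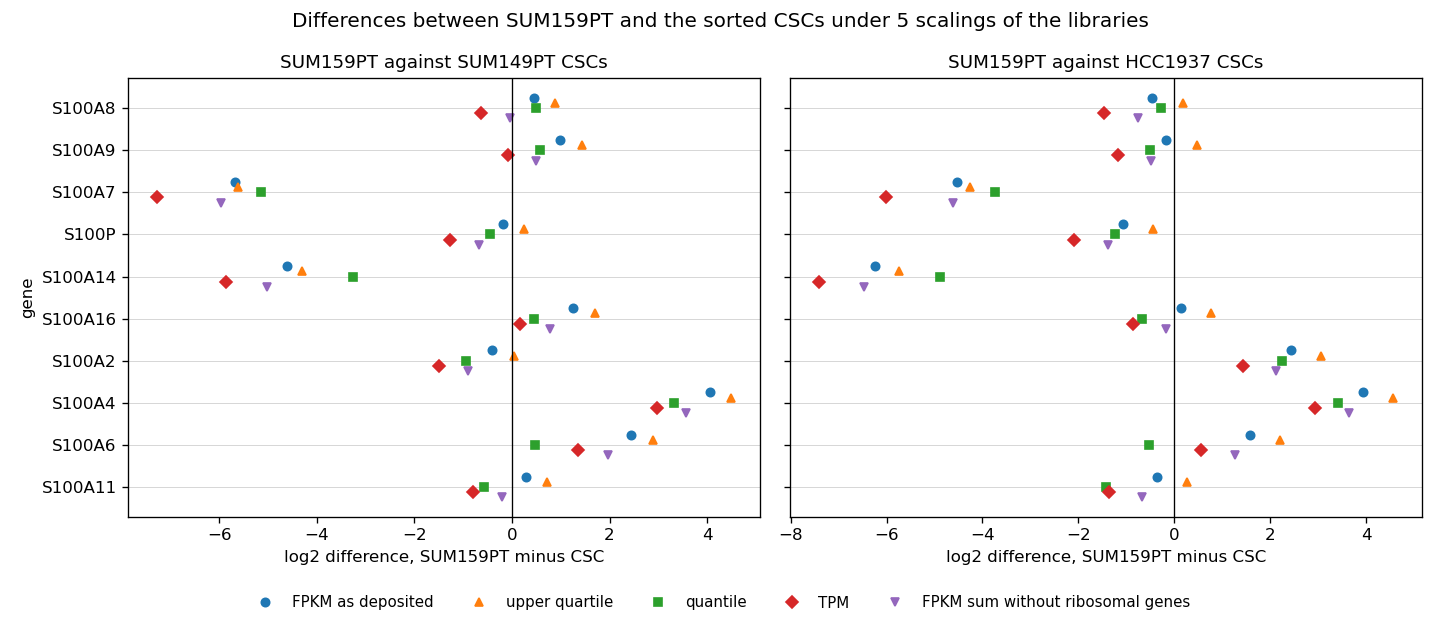
log2 difference of SUM159PT from SUM149PT CSCs and from HCC1937 CSCs for each S100 gene under 5 scalings of the libraries, with one symbol per scaling. S100A4 (4.06 and 3.93 with FPKM as deposited) stays right of 0 and S100A7 and S100A14 stay left of it, whereas S100A6 against HCC1937 CSCs (1.57 as given) runs from -0.52 with quantile normalization to 2.20 with upper quartile scaling, and S100A11 against SUM149PT CSCs (0.28 as given) runs from -0.81 with TPM rescaling to 0.72 with upper quartile scaling.

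Transcript length also divided the SUM159PT comparisons, and 7 of the 10 members have a longest transcript of at most 1000 bases. Genes of that length (877 tested) had a median of 0.31 against SUM149PT CSCs, and longer genes (13311 tested) had a median of -0.76. Against HCC1937 CSCs the medians were 0.00 and -0.97. The part of length in the members' values was not tested, and within SUM149PT and HCC1937 the corresponding medians were -0.17 beside -0.08 and -0.11 beside -0.03.

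As a share of each library's FPKM sum, the 10 members together held 0.462% to 0.532% in SUM149PT CSCs and 1.21% to 1.34% in the non-CSCs. The shares were 0.711% to 0.891% in HCC1937 CSCs, 1.17% to 1.39% in HCC1937 non-CSCs and 0.894% to 0.963% in SUM159PT. The summed share of these 10 genes was thus lower in CSC than in non-CSC libraries of both sorted lines, without overlap. The sum contains the genes already called lower, so it is not a separate result. It also leaves out the other S100 symbols, among them S100A10, which was higher in SUM149PT CSCs and lower in HCC1937 CSCs.

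Of the members, 9 lie on chromosome 1 within 1.58 Mb (GENCODE 29, GRCh38), and S100P lies alone at chr4:6693069-6697170 on the plus strand. The chromosome 1 members begin with S100A11 at chr1:152032506-152047907, from which a gap of 1309946 bases leads to the others. S100A9 (chr1:153357854-153361027) is on the plus strand. S100A8 (chr1:153390032-153391188), S100A7 (chr1:153457744-153460701), S100A6 (chr1:153534599-153536244), S100A4 (chr1:153543613-153550136), S100A2 (chr1:153561108-153567890), S100A16 (chr1:153606886-153613145) and S100A14 (chr1:153614255-153616986) follow on the minus strand, as S100A11 is. S100A4 overlaps S100A3 on the same strand, and S100A6 and S100A11 overlap antisense genes, so with strandedness unknown some reads there could belong to either gene. Of the chromosome 1 members called lower in the CSCs of both lines, S100A9, S100A8 and S100A7 follow each other among the members. S100A6, S100A4, S100A2 and S100A16 part them from S100A14. Of the other S100 genes, S100A12, S100A7A and S100A7L2 lie between S100A9 and S100A7, and S100A5 and S100A3 between S100A6 and S100A2.

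**Figure D5:**
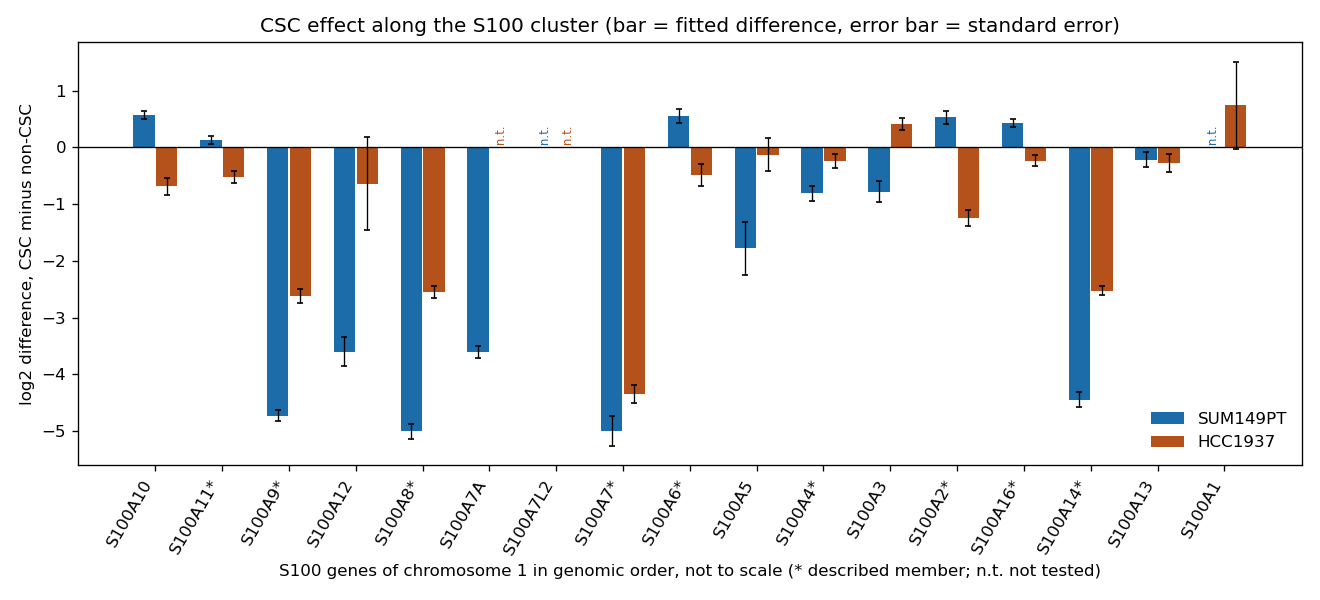
log2 difference of CSCs from non-CSCs for the S100 genes of chromosome 1 in their order along the chromosome, for SUM149PT and HCC1937, with bars from 0, error bars of 1 standard error from limma, asterisks on the members and n.t. where a gene was not tested. S100A9, S100A8, S100A7 and S100A14 reach -4.73, -5.00, -5.00 and -4.45 in SUM149PT, and S100A6, S100A4, S100A2 and S100A16, which lie between them, stand at 0.56, -0.81, 0.53 and 0.43.

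The stretch just upstream of each start was read from RefSeq promoters (GRCh38.p14), where the TATA box of a promoter lies, because 5 members moved together. All 10 members matched, with 14 starts among 35116 promoters, and the 4 motifs searched were chosen after the data were seen. TATAAA, on the sense strand from 40 to 11 bases before the start, occurred in 5 of 14 member promoters (35.7%) and in 823 of all promoters (2.34%). Among the other S100 genes 3 of 12 promoters had it, from S100A7A, S100A13 and S100G. The 7 stretches shown are those of the 5 genes lowest in CSCs, of S100A4, which has the motif, and of S100A16, the neighbour of S100A14. Each is 30 bases long, 5' to 3' on the strand of the gene, with TATAAA in capitals.
S100A7: caggctgagcctTATAAAggactgctcttt
S100A8: agcctaaccgcTATAAAaaggagctgcctc
S100A9: caggagctgccTATAAAtgccgagcctgca
S100P: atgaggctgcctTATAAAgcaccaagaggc
S100A14: cttcccccaggtataagagctgagctcagg
S100A4: tggctggggTATAAAtaggtcagacctctg
S100A16: gtgtatccctttaacaagggcccaacccca

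These lie at chr1:153460662-153460691 (minus) for S100A7, chr1:153391084-153391113 (minus) for S100A8, chr1:153357814-153357843 (plus) for S100A9 and chr4:6693838-6693867 (plus) for S100P. Those of S100A14, S100A4 and S100A16 lie at chr1:153616336-153616365, chr1:153545817-153545846 and chr1:153613148-153613177, all minus. S100A7, S100A8, S100A9 and S100P, called lower in the CSCs of both lines, hold the letters, S100A14, also called lower, does not, and S100A4, not called in either line, does. S100A8 has 3 RefSeq starts, S100A2 and S100A16 have 2 each, and the stretches shown belong to 1 of them. A match describes the letters only and is not a tested site.

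Over the full 250 bases before the start and on both strands, TATAAA occurred in 10.7% of all promoters and in 6 of the 14 member promoters, those of S100A4, S100A7, S100A8, S100A9 and S100P. CACCTG, the E-box letters bound by ZEB and SNAI factors, occurred in 17.5% of promoters and in 10 of the 14, with S100A6 and S100A11 lacking it. The 250 bases before the 3 S100A8 starts overlap, so 1 CACCTG of S100A8 was counted in 3 promoters and 1 TATAAA in 2, and 1 of its C/EBP matches in 2. TTNNGNAA, a form of the C/EBP motif, occurred in 33.2% of promoters and in 7 of the 14, from S100A6, S100A8, S100A9, S100A11, S100A16 and S100P. TGANTCA, the AP-1 motif, occurred in 6.57% of promoters and in 1 of the 14, from S100A2. None of these motifs contains another. The 120 bases before the S100A9 and S100A14 starts are printed because these genes moved together with and without TATAAA, at chr1:153357734-153357853 (plus) and chr1:153616326-153616445 (minus). Capitals mark TATAAA and CACCTG, or CAGGTG, its reverse complement.
S100A9: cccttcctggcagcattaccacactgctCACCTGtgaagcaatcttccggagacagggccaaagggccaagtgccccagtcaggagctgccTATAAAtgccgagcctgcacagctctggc
S100A14: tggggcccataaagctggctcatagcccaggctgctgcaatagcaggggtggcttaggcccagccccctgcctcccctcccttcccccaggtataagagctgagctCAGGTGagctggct

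The promoters of S100A7 and S100A7A were alike in 241 of 250 bases (96.4%, 9 mismatches, 0 gaps). S100A7A, like S100A7, was called lower in SUM149PT CSCs, at log2 -3.61 (adjusted p = 3.38e-06), with means of 0.0375 and 1.57 FPKM. It passed the filter only through the non-CSCs, so it had to differ. In HCC1937 S100A7A did not reach the filter and was not tested.

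Of the 11 other S100 symbols, 6 were tested in SUM149PT. S100A7A, S100A12 and S100A5 were called lower in CSCs, and they passed the filter only through the non-CSCs, so they had to differ and their number says nothing of the family. S100A12, a neutrophil protein that binds RAGE, was listed at 0 in the CSC libraries and averaged 1.17 FPKM in the non-CSCs. S100A5 was also listed at 0 in the CSC libraries and stood at 0.116, 0.629 and 0.156 FPKM in the non-CSCs. In HCC1937, limma called 0 of 6 in either direction, beside 6% of all genes lower and 2.71% higher. Of the 6, 2 had an unadjusted p below 0.05, with a smallest adjusted p of 0.0223 and a median of -0.20. The most abundant of the 11 was S100A10, a partner of annexin A2 that does not need calcium, with means of 184.6 and 124.3 FPKM in the SUM149PT fractions, 44.3 and 71.2 FPKM in HCC1937, and 195.5 FPKM in SUM159PT. S100A3 averaged 1.60 and 2.81 FPKM in SUM149PT, 12.2 and 9.09 FPKM in HCC1937, and 39.9 FPKM in SUM159PT. S100A13, a member that helps export growth factors, averaged 14.7 and 16.9 FPKM, 28.8 and 34.9 FPKM, and 52.7 FPKM in the same groups.

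Among 9 receptors of S100 proteins, 7 were tested in SUM149PT, with 1 lower in CSCs and 2 higher, beside 22.1% and 12.8% of all genes. CD33 (1.87, adjusted p = 4.1e-05) and TLR4 (1.35, adjusted p = 5.17e-05) were higher, and IL10RA (-1.26, adjusted p = 6.4e-05) was lower. Their group means were low, at 0.430 and 0.0444 FPKM for CD33, 2.11 and 0.772 FPKM for TLR4, and 0.0265 and 0.204 FPKM for IL10RA in CSCs and non-CSCs. CD33 and IL10RA passed the filter only through the fraction where they were higher, so they had to differ. In HCC1937, limma called 0 of 6 tested, beside 6% of all genes lower and 2.71% higher. Of the 6, 2 had an unadjusted p below 0.05, with a smallest adjusted p of 0.0227 and a median of 0.03. AGER, which encodes RAGE, was listed at 0 in the SUM149PT and SUM159PT libraries and stood at 0, 1.31 and 8.20 FPKM in HCC1937 CSCs and at 2.65, 3.48 and 6.17 FPKM in the non-CSCs, which overlapped. BSG, a receptor of S100A9, was the most abundant, at 244.1 and 192.5 FPKM in SUM149PT, 227.8 and 200.7 FPKM in HCC1937, and 541.2 FPKM in SUM159PT.

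All 17 partner proteins of the S100 family were tested in SUM149PT, where 0 were lower in CSCs and 3 higher, with a median of 0.08. Of all genes there 22.1% were called lower and 12.8% higher. ANXA6 (2.32, adjusted p = 1.04e-05), MYH9 (1.93, adjusted p = 6.6e-06) and ANXA2 (1.23, adjusted p = 5.29e-05) were higher. MYH9, the myosin heavy chain bound by S100A4, averaged 360.7 FPKM in SUM149PT CSCs, 94.9 in the non-CSCs, 108.8 and 104.1 in the HCC1937 fractions and 400.0 in SUM159PT. In HCC1937, limma called 0 of 17, beside 6% of all genes lower and 2.71% higher. Of the 17, 8 had an unadjusted p below 0.05, with a smallest adjusted p of 0.00098 and a median of -0.00. ANXA1, the annexin bound by S100A11, averaged 166.0 and 204.0 FPKM in the SUM149PT fractions, 398.7 and 536.8 FPKM in HCC1937, and 12.4 FPKM in SUM159PT.

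The 7 fused-type S100 genes, such as filaggrin and trichohyalin, join an S100 domain to long repeats in the skin barrier. None of the 7 passed the filter, and the highest group mean was 0.0885 FPKM for TCHH. Of 35 other EF-hand calcium sensors, 25 were tested in SUM149PT, with 4 lower, 5 higher and a median of 0.04. Of all genes there 22.1% were lower and 12.8% higher. In HCC1937 24 were tested, with 3 lower, 1 higher and a median of -0.08, beside 6% and 2.71% of all genes. RCN3, a reticulocalbin of the secretory pathway, was higher in CSCs of both lines (3.04 and 1.45). In SUM149PT VSNL1 (2.46), NCS1 (2.45), HPCAL1 (1.39) and CALML4 (1.16) were also higher, and CHP1 (-1.30) and CETN2 (-1.07) were lower. CALB1, calbindin, was lower in both (-2.28 and -1.18), CALML5, a calmodulin-like protein of keratinocytes, was lower in both (-2.08 and -1.84), and CALB2 was lower in HCC1937 (-2.50) and had a value of 0.86 in SUM149PT, under the fold limit (adjusted p = 0.00887). In SUM149PT CALB1 and CALML5 passed the filter only through the non-CSCs. CALM2, a calmodulin gene, was the most abundant in the sorted groups, at 251.8 and 171.5 FPKM in SUM149PT and 197.2 and 232.7 FPKM in HCC1937.

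Epithelial and mesenchymal markers differed between the same fractions as the members. Of 7 epithelial genes, 6 were called lower in CSCs in each line and 0 higher, with medians of -3.02 in SUM149PT and -1.40 in HCC1937. Of all genes, 22.1% and 6% were called lower in these lines. Their summed FPKM was 150.7 to 160.9 in SUM149PT CSCs and 1193 to 1245 in the non-CSCs, 617.6 to 730.9 and 1596 to 1849 in the HCC1937 fractions, and 277.7 to 293.6 in SUM159PT. KRT17 was the most abundant of them in SUM149PT, at 66.4 and 540.1 FPKM, and CDH1, E-cadherin, averaged 3.32 and 78.3 FPKM there, 16.9 and 82.8 FPKM in HCC1937, and 0.0681 FPKM in SUM159PT. All 4 mesenchymal genes were tested, and 3 were called higher in SUM149PT CSCs and 4 in HCC1937 CSCs, with medians of 2.84 and 1.94. The shares of all genes called higher were 12.8% and 2.71%. VIM, vimentin, averaged 2090 and 243.8 FPKM in SUM149PT, 917 and 156.1 FPKM in HCC1937, and 1078 FPKM in SUM159PT. The other mesenchymal genes did not follow VIM in SUM159PT. ZEB1 averaged 0.204 FPKM there, below the non-CSC means of SUM149PT (0.776) and HCC1937 (1.63). CDH2 averaged 2.865 FPKM there, also below those non-CSC means (3.31 and 8.08). FN1 averaged 158.1 FPKM there, below both SUM149PT fractions and above both HCC1937 fractions. The part of these markers in the S100 differences was not tested.

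Of 12 markers of the myeloid cells and neutrophils in which S100A8 and S100A9 are best known, 9 to 10 were under 1 FPKM in all libraries of each group, and CD14 and CD68 were not low. CD14 averaged 2.66 and 51.3 FPKM in SUM149PT CSCs and non-CSCs, a log2 difference of -4.23 in the direction of S100A8, and 60.3 and 30.3 FPKM in the HCC1937 fractions, where S100A8 was higher in non-CSCs. CD68 averaged 16.2 and 48.3 FPKM in SUM149PT and 42.3 and 39.99 FPKM in HCC1937. The part of these genes in the S100 differences was not tested. Their summed FPKM was 18.5 to 19.6 in SUM149PT CSCs and 97.2 to 103.6 in the non-CSCs, and 94.4 to 109.2 and 69.1 to 74.5 in the HCC1937 fractions, with 48.2 to 54.1 in SUM159PT. The most abundant was CD68 or CD14 in each group, with means of 16.2 to 60.3 FPKM. In SUM149PT 4 of 5 tested were lower in CSCs (median -2.38), beside 22.1% of all genes. CSF3R, whose value is that median, and FCER1G passed the filter there only through the non-CSCs, so they had to differ. In HCC1937 1 of 6 was lower (median -0.17), beside 6% of all genes, with 0 higher in both lines. TYROBP and ELANE were listed at 0 in all groups, PTPRC, the pan-leukocyte marker CD45, reached at most 0.0986 FPKM in any library, and LYZ at most 0.0830 FPKM.

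Of 7 fibroblast genes, 2 were lower and 3 higher in SUM149PT CSCs among 6 tested (median 0.63), beside 22.1% and 12.8% of all genes. In HCC1937 0 were lower and 2 higher among 4 tested (median 1.38), beside 6% and 2.71% of all genes. LUM passed the filter in HCC1937 only through the CSCs, so it had to differ. COL1A1 was the most abundant in each group, at 216 and 49.0 FPKM in SUM149PT, 11.04 and 6.76 FPKM in HCC1937, and 20.1 FPKM in SUM159PT, where S100A4 was highest. Their summed FPKM was 235.8 to 241.2 and 71.0 to 73.8 in SUM149PT, 15.3 to 16.1 and 6.87 to 8.90 in HCC1937, and 41.1 to 46.3 in SUM159PT.

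Across the 15 libraries, which fall into 5 groups, genes whose log2 level ran much like each member were found among 12164 genes averaging 1 FPKM or more. For S100A8 they were S100A9 (r = 0.9898), S100P (r = 0.9839) and EDN1 (r = 0.9820), and for S100P they were EDN1 (r = 0.9874), S100A8 and SPOCK2 (r = 0.9838). S100A9 ran most like S100A8, RTKN (r = 0.9897) and KIAA1522 (r = 0.9856). S100A7 ran with PRSS22 (r = 0.9957), PTAFR (r = 0.9892) and CMTM4 (r = 0.9864), and S100A14 with PRSS8 (r = 0.9982) and DTX4 (r = 0.9947). S100A8, S100A9 and S100P thus had another member among their 3 most alike genes, and S100A7 and S100A14 had none.

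The other members had other nearest genes. S100A2 ran with LIMK1 (r = 0.9641), LTBP3 and CACNB3 (both r = 0.9609), and S100A11 with UBE2C (r = 0.9679), CALB2 (r = 0.9677) and TCTEX1D2 (r = 0.9663). S100A4 ran with UBXN1 (r = 0.9932), TEX264 (r = 0.9904) and AAMP (r = 0.9894). S100A6 ran with COX7A2 (r = 0.9946), SPSB3 (r = 0.9937) and RPL35A (r = 0.9887), and S100A16 with HARS (r = 0.9936), COG4 (r = 0.9922) and DAZAP1 (r = 0.9906). Between members, r was 0.94 for S100A7 and S100A14, 0.89 for S100A6 and S100A16, -0.32 for the neighbours S100A14 and S100A16, and -0.77 for S100A4 and S100A14, each over the same 15 libraries. Libraries of a group share a line and a sort, so these values describe the order of the groups more than variation within them.

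The ratio of S100A6 to S100A4 within a library averaged 50.1 in SUM149PT CSCs, 19.4 in the non-CSCs, 84.6 and 102 in the HCC1937 fractions, and 16.3 in SUM159PT. The SUM149PT fractions did not overlap in it (47.7 to 52.2 beside 17.5 to 21.4), and the HCC1937 fractions did (79.1 to 94.3 beside 81.7 to 131).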

How the data were processed

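RNA of 15 libraries in 5 groups was sequenced, and the authors deposited one table of unlogged FPKM per gene symbol. Their processing notes name Bowtie2 and GRCh38, and the quantifier, annotation and versions are not given in the sources used here. Read depth is unknown. Values were transformed to log2(FPKM + 0.1) and fitted with limma 3.58.1 (lmFit and eBayes; R 4.3.3) over all genes averaging 0.1 FPKM or more across the libraries compared. P-values were adjusted by Benjamini-Hochberg over all genes tested. A call needed an adjusted p no higher than 0.05 and a log2 difference of 1 or more, and the study's adjusted p limit of 0.0001 was applied beside it. Differences within a line used its 6 libraries, the interaction used the 12 sorted ones, and the other comparisons, with the orders of the 5 groups, used 1 fit of all 15. Single members were also compared by exact two-sided permutation. Tables, annotation and figures were made with matplotlib 3.10.9, scipy 1.17.1, numpy 2.4.6 and pandas 2.3.3 under Python 3.11.15. In R, statmod 1.5.0 was loaded beside limma, and the replicate block was a fixed term of the limma design.

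Named genes were the 10 members, other S100 symbols with a group mean of at least 1 FPKM, the called gene of largest difference in each direction and the most abundant gene of fixed lists of receptors, partners, fused-type genes and EF-hand sensors, and the 3 genes most alike each member, of which 1 is not reported here. Others, such as AGER, PTPRC, LYZ, TYROBP and ELANE, were named after the values were seen. Members and lists were chosen with earlier results of these data known. Alternatives changed the pseudocount (0.01 and 1), the filter, the scaling, the call limits, 1 replicate at a time and a replicate block. The pipeline was tested on simulated data. Positions came from GENCODE 29 and promoters from RefSeq (GRCh38.p14).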

Additional observations from a re-analysis of the deposited data

Results flagged for a closer look

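The size of the CSC effect differed from line to line for 9 of the 10 members in limma's interaction test over the 12 sorted libraries, judged by an adjusted p no higher than 0.05 whatever the size, a limit that 10053 of 16451 genes passed. The effect in SUM149PT minus that in HCC1937, on the log2 scale, was -2.92 for S100P (adjusted p = 1.16e-06), -2.46 for S100A8 (adjusted p = 1.41e-06), -2.11 for S100A9 (adjusted p = 2.48e-06) and -1.92 for S100A14 (adjusted p = 3.97e-06). It was 1.77 for S100A2 (adjusted p = 2.56e-05) and 1.05 for S100A6 (adjusted p = 0.00386), genes that were higher in SUM149PT CSCs and had negative values in HCC1937. Smaller differences were 0.66 for S100A11 (adjusted p = 0.00177), 0.66 for S100A16 (adjusted p = 0.000687) and -0.57 for S100A4 (adjusted p = 0.0266). S100A4 lost the limit with a replicate block (adjusted p = 0.0717) and without HCC1937 CSC replicate 1 or 2, HCC1937 non-CSC replicate 1 or SUM149PT non-CSC replicate 1 (up to 0.0624), which leaves 8 members. What sets the lines apart in these genes was not tested.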

How the results depend on the processing

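Alternatives to the pseudocount, filter, scaling, limits and library set were run for each comparison, and those fitted without SUM159PT or scaled to the FPKM sum without ribosomal protein genes were chosen after seeing the data. Within SUM149PT and within HCC1937, 160 of 160 member values each kept their direction and their call (both limits together), as did 205 of 210 in the interaction, where the other 5 were weaker. The adjusted p alone crossed 0.05 for some members that were never called, S100A6, S100A11 and S100A16 within a line and S100A4 and S100A7 in the interaction. Counts of members called moved by more than 1.5 times in SUM149PT to 9 without a fold limit (5 as given), where 11993 of 16037 genes were called. In HCC1937 they moved to 0 at the study's limits (6 as given), which 0 of 15582 genes met in this fit. The study's own analysis did call genes in HCC1937. For HCC1937 against SUM149PT CSCs (5 as given) they moved to 3 with upper quartile scaling, 3 at the study's limits, 9 without a fold limit and 3 scaled without ribosomal protein genes, beside 6808, 6111, 12591 and 6918 of 16373 genes. For SUM159PT against SUM149PT CSCs (5 as given) they moved to 3 with quantile normalization and 9 without a fold limit, beside 9251 and 13371 genes. Smaller moves included 9 for the interaction without a fold limit (6 as given), beside 10053 of 16451 genes. SUM159PT against HCC1937 CSCs gave 8 with TPM rescaling (6 as given), beside 11630 of 16373 genes. HCC1937 against SUM149PT non-CSCs (7 as given) gave 8 under the 4 other scalings and 9 without a fold limit, beside 6690 to 7085 and 12568 genes. Without each replicate in turn the counts ran 5 to 5, 6 to 6, 5 to 6 (interaction), 4 to 6 and 6 to 8 (HCC1937 against SUM149PT, CSCs and non-CSCs), and 5 to 6 for each SUM159PT comparison. Fitted without SUM159PT, the HCC1937 counts were 5 and 7. Reversed signs for HCC1937 against SUM149PT CSCs were those of S100A4 (0.13 as given), at -0.06 with upper quartile scaling, -0.07 with quantile normalization, -0.06 without ribosomal protein genes, and -0.01 to 0.23 without each replicate. For SUM159PT against SUM149PT CSCs, upper quartile scaling gave 0.04 for S100A2 and 0.25 for S100P, quantile normalization gave -0.58 for S100A11, TPM rescaling gave -0.64 for S100A8, -0.09 for S100A9 and -0.81 for S100A11, and scaling without ribosomal protein genes gave -0.04 for S100A8 and -0.21 for S100A11. Against HCC1937 CSCs, upper quartile scaling gave 0.17 for S100A8, 0.46 for S100A9 and 0.27 for S100A11, quantile normalization gave -0.52 for S100A6 and -0.67 for S100A16, TPM rescaling gave -0.87 for S100A16, and scaling without ribosomal protein genes gave -0.17 for S100A16. The cause was not tested. Of the other member values, 158 of 170 and 162 of 170 (HCC1937 against SUM149PT, CSCs and non-CSCs) and 143 and 145 of 160 (SUM159PT) kept direction and call. A replicate block left the counts at 5, 6, 6, 5, 7, 5 and 6, with S100A4 in the interaction at adjusted p = 0.0717 (0.0266 as given). Same-numbered CSC and non-CSC libraries correlated at 0.087, 0.024 and 0.080 in SUM149PT and -0.084, -0.036 and -0.019 in HCC1937 after group means were removed, and whether they share a culture or a sort is not known here. FPKM gives no depth, so low values carry no counting limit.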
